A study of Mus musculus with 2 samples.

Results

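The 48 genes described here encode the digestive enzymes, membrane proteins and acid pump of the lysosome, part of the autophagy machinery that delivers cargo to it, and the transcription factors that act on these genes. They were listed by name, though with earlier results of these data known. All 48 were found among the 45318 Ensembl genes of the deposited count table. RNA of mouse (strain C57Bl/6) acute myeloid leukaemia cells was sequenced after poly(A) selection. The leukaemia was driven by the MLL/AF9 fusion oncogene, and its cells were sorted by their GFP label out of bone marrow. The 2 groups were leukaemia cells from brequinar-treated mice (1 library) and from vehicle-treated mice (1 library). Brequinar inhibits dihydroorotate dehydrogenase, an enzyme of de novo pyrimidine synthesis. Both groups carry the fusion and the GFP label, so neither is a healthy control. The sources used here do not give the dose, the time on treatment, or the age and number of the mice. The comparison asks how these genes stood in leukaemia cells after brequinar, and with 1 library a group it has no replicate check and no p-value.

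Lysosomes are acidic compartments in which hydrolases break down proteins, glycans and lipids taken up from outside or delivered by autophagy. A rotary proton pump, the V-ATPase, keeps them acidic, and glycosylated proteins such as LAMP1 line their membrane. Many of their genes share a short promoter element, known as CLEAR, that the MiT/TFE transcription factors bind, and these factors enter the nucleus when the kinase mTORC1 is inactive. In myeloid cells the same enzymes serve the digestion of engulfed material, and macrophages hold them in abundance.

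As a group these genes differed little between the libraries. Counts were scaled to library size by the TMM method and expressed as CPM, and a gene entered when its mean over both libraries was at least 1 CPM. Of the 48 genes 45 entered, and Ctsf, Ctsk and Atp6v0d2 did not. In the brequinar library Wipi1 and Lgmn were at least 2-fold higher, Naglu was at least 2-fold lower, and the other 42 lay within 2-fold. That is 4.44% higher and 2.22% lower, where among all 11504 genes that entered 6.45% were at least 2-fold higher and 4.40% at least 2-fold lower. The median log2 ratio of brequinar over vehicle was 0.01 over the 45 genes and 0.00 over all genes that entered. Summed over the 48 genes, the level was 8591 CPM in the brequinar library and 8626 CPM in the vehicle library, and the genes held 0.832% of gene counts in the brequinar library and 0.890% in the vehicle library. Of the 45 log2 ratios 23 were above 0, or 51.1%, against 50.1% of all genes that entered. With scaling by total counts alone the median over the 45 genes turned to -0.08 and 16 were above 0. Over all 11504 genes that entered, the median turned to -0.09 with that scaling and 4722 were above 0. That scaling lowers a log2 ratio by 0.092 before the prior count is added, and by slightly less in genes of few counts.

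Gene counts summed to 47950714 in the brequinar library and 47935476 in the vehicle library, and 1 count was worth 0.0215 CPM in the brequinar library and 0.0202 CPM in the vehicle library. Ratios below are given with exact (Clopper-Pearson) 95% intervals, which cover counting error only. Reads copied by PCR carry no molecular identifier here and are not independent, so the intervals can be too narrow. All 9 genes used to check the label as leukaemic myeloid cells were detected in both libraries, with sums of 5040.2 CPM in the brequinar library and 10355 CPM in the vehicle library. Hoxa9, a transcription factor of this leukaemia, stood at 231 CPM in the brequinar library and 238 CPM in the vehicle library. Of the 9 genes 2 were at least 2-fold lower, Mpo, the myeloperoxidase of primary granules (979 CPM in the brequinar library and 5912 CPM in the vehicle library), and Kit, a receptor of progenitors (76.5 CPM in the brequinar library and 180.3 CPM in the vehicle library). The integrin gene Itgam was at least 2-fold higher (1234 CPM in the brequinar library and 399 CPM in the vehicle library). Marker genes of other cell types and of myeloid maturation were read as well, and several of the lists differed between the libraries. Of 15 markers of tissue macrophages 12 entered and 10 of these were higher by 2-fold or more in the brequinar library, with a median log2 ratio of 2.99 over the 12. The 15 summed to 934 CPM in the brequinar library and 641 CPM in the vehicle library, and most of both sums came from Vcam1 (496 CPM in the brequinar library and 369.6 CPM in the vehicle library) and Adgre1 (225 CPM in the brequinar library and 221 CPM in the vehicle library), the markers within 2-fold. None of the 15 was at 0 in either library, and C1qa, a complement gene of tissue macrophages, stood at 8.16 CPM in the brequinar library and 0.9903 CPM in the vehicle library. The 11 markers of secondary granules and neutrophil maturation all passed 2-fold on the higher side, with sums of 23751 CPM in the brequinar library and 1434 CPM in the vehicle library. Of 13 erythroid markers that entered 12 were higher by 2-fold or more, with sums of 479 CPM in the brequinar library and 245 CPM in the vehicle library. The 3 of 7 megakaryocyte and platelet markers that entered all passed 2-fold on the higher side, with sums over the 7 of 104 CPM in the brequinar library and 17.8 CPM in the vehicle library. Of 8 monocyte markers none was at least 2-fold higher and 2 were lower, with sums of 1052 CPM in the brequinar library and 1092 CPM in the vehicle library. T and NK cell markers summed to 8.85 CPM in the brequinar library and 23.0 CPM in the vehicle library. In the same order, stromal and endothelial markers summed to 9.92 and 27.5 CPM, and B and plasma cell markers to 20.8 and 34.5 CPM. Mast cell, basophil and eosinophil markers summed to 99.0 and 120 CPM, and dendritic cell markers to 7.23 and 6.45 CPM. Whether these markers came from other cells or from the sorted leukaemia cells was not tested, and neither was their part in the values below. In such bulk samples fewer cells of a type and less RNA per cell cannot be told apart.

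**Figure D1:**
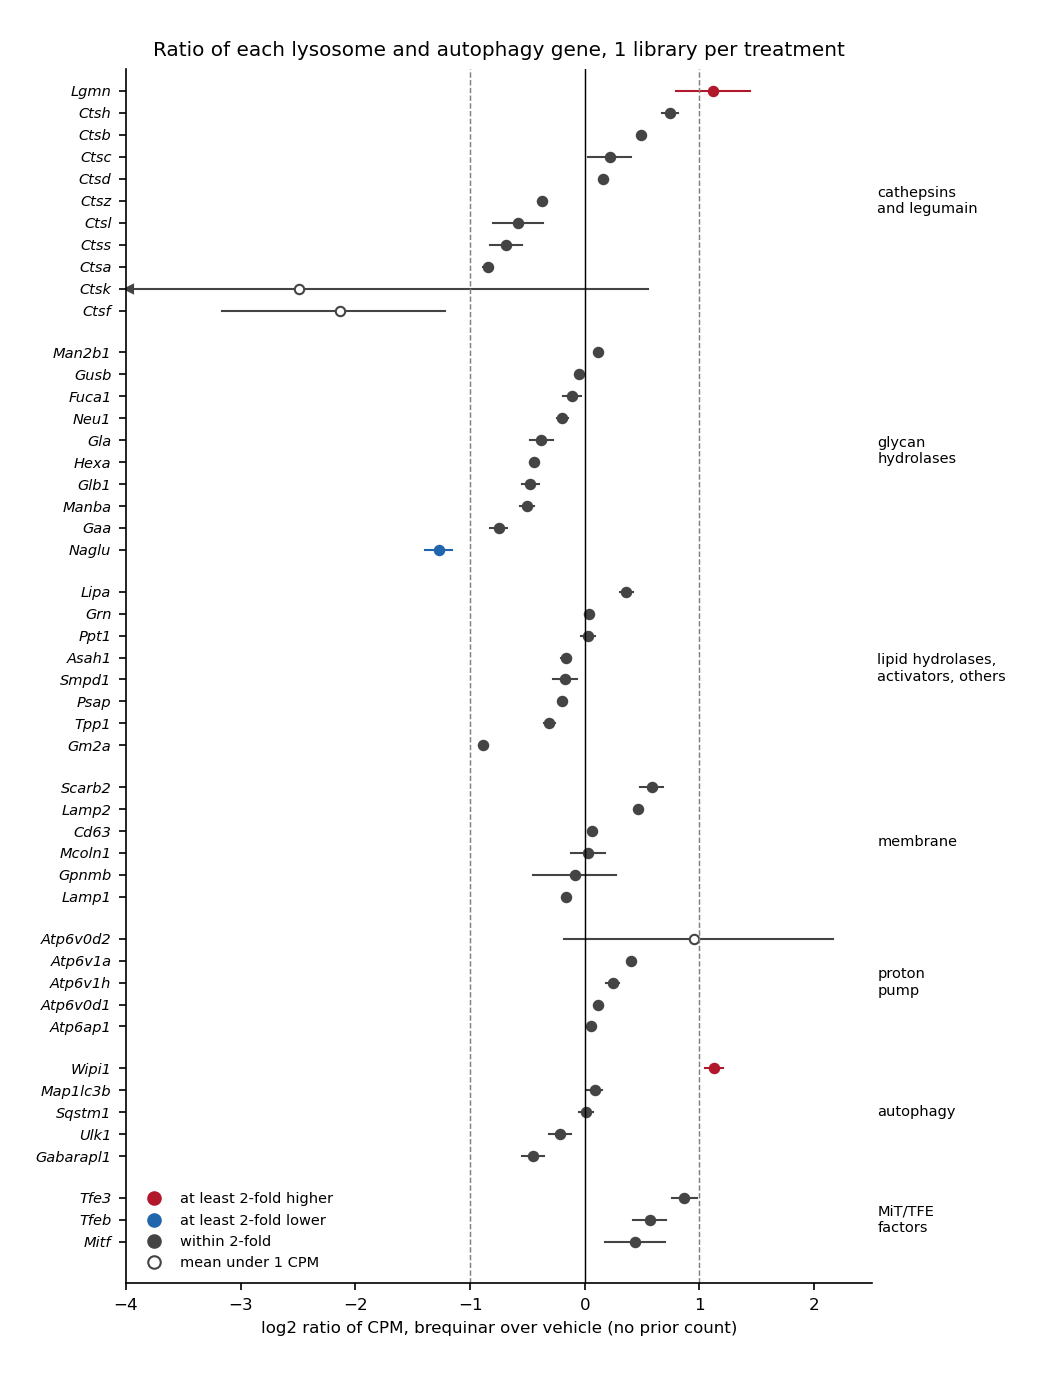
Log2 ratio of CPM, brequinar over vehicle, for each of the 48 genes in order within its role, with exact 95% counting intervals from 1 library per treatment; dashed lines mark 2-fold, open points mark the 3 genes with a mean under 1 CPM, and the arrow marks an interval that runs past the axis. Wipi1 and Lgmn lie beyond 2-fold on the higher side, Naglu lies beyond 2-fold on the lower side, and the other filled points lie between the dashed lines.

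Cathepsins are the main lysosomal proteases, and their genes spread to both sides. Legumain and 10 cathepsins were listed, of which 9 genes entered, 1 was at least 2-fold higher and none was lower, with a median log2 ratio of 0.16. Lgmn (ENSMUSG00000021190.11, chr12:102394084-102439813 on the minus strand of GRCm38), which encodes the asparagine-specific protease legumain that processes other cathepsins, stood at 5.38 CPM in the brequinar library, against 2.49 CPM in the vehicle library. It was 2.17-fold higher (interval 1.74 to 2.71), on 250 counts in the brequinar library and 123 in the vehicle library, so its interval reaches below 2-fold. Ctsh, a cathepsin with aminopeptidase activity, stood at 98.7 CPM in the brequinar library and 58.95 CPM in the vehicle library, a ratio of 1.67 (interval 1.598 to 1.75). Ctsb, one of the most abundant cysteine cathepsins of myeloid cells, stood at 728 CPM in the brequinar library and 519.8 CPM in the vehicle library. These 3 genes had the largest ratios above 1 of this role. Of the annotated exon bases of Ctsb 12.8% overlap Fdft1 on the opposite strand, and no source used here gives the strand setting of the counting.

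On the other side, Ctsa (ENSMUSG00000017760.12, chr2:164832873-164841032 on the plus strand) encodes cathepsin A, a serine carboxypeptidase that also shields the enzymes made from Glb1 and Neu1 from breakdown. It stood at 161 CPM in the brequinar library and 289.5 CPM in the vehicle library, 1.799-fold lower (interval 1.75 to 1.85) and so short of 2-fold. Its 2 partners stood nearer to 1, Glb1 (β-galactosidase) at 48.3 CPM in the brequinar library and 67.01 CPM in the vehicle library and Neu1 (a sialidase) at 159 CPM in the brequinar library and 182 CPM in the vehicle library. Ctss, which cuts the invariant chain in antigen-presenting cells, stood at 14.2 CPM in the brequinar library and 22.9 CPM in the vehicle library. Ctsz, a carboxypeptidase, stood at 207 CPM in the brequinar library and 268 CPM in the vehicle library. Ctsl stood at 6.14 CPM in the brequinar library and 9.195 CPM in the vehicle library. A gene on the opposite strand covers 26.8% of the annotated exon bases of Ctsl. That gene is not among the genes of the deposited counts, and whether its reads add to the low count of Ctsl was not tested. The remaining proteases stood close to 1: Ctsd, the main aspartic protease of the lysosome, at 509 CPM in the brequinar library and 456 CPM in the vehicle library, and Ctsc, which activates the serine proteases of neutrophil granules, at 10.7 CPM in the brequinar library and 9.15 CPM in the vehicle library. Another gene annotated on the same strand, which is also not among the genes of the deposited counts, shares 34.4% of the exon bases of Ctsd.

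Ctsf and Ctsk did not enter. Ctsf, a cysteine cathepsin, had 12 counts in the brequinar library and 56 in the vehicle library, a ratio of 0.228 (interval 0.111 to 0.431). Ctsk, the collagen-degrading protease of osteoclasts, had 1 count in the brequinar library and 6 in the vehicle library, too few to show a difference. Atp6v0d2, the osteoclast form of a pump subunit, had 20 counts in the brequinar library and 11 in the vehicle library, a ratio of 1.94 whose interval of 0.885 to 4.48 includes 1. The osteoclast genes Ocstamp, Dcstamp and Calcr had no count in either library and Oscar had 0 counts in the brequinar library and 1 count in the vehicle library. A count of 0 allows up to 0.0646 CPM in the brequinar library and 0.0606 CPM in the vehicle library (3 counts).

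The glycan hydrolases, which take sugars off glycoproteins, glycolipids and glycosaminoglycans, lay mostly below 1. All 10 entered, 9 had a log2 ratio below 0, and the median was -0.41, under each of the 4 scalings tried between -0.41 and -0.50. Naglu alone was at least 2-fold lower. Naglu (ENSMUSG00000001751.9, chr11:101070012-101077672 on the plus strand) encodes an N-acetylglucosaminidase needed to break down heparan sulfate. It stood at 17.5 CPM in the brequinar library and 42.4 CPM in the vehicle library, 2.42-fold lower (interval 2.23 to 2.62), on 815 counts in the brequinar library and 2098 in the vehicle library. Its whole interval lies beyond 2-fold.

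The next in order was Gaa, the α-glucosidase that digests glycogen, at 50.6 CPM in the brequinar library and 85.1 CPM in the vehicle library, 1.68-fold lower (interval 1.599 to 1.77). Manba, a β-mannosidase, stood at 80.6 CPM in the brequinar library and 114 CPM in the vehicle library, and Hexa, a subunit of β-hexosaminidase, at 333 CPM in the brequinar library and 453 CPM in the vehicle library. Gla, the α-galactosidase of globotriaosylceramide breakdown, stood at 30.1 CPM in the brequinar library and 39.2 CPM in the vehicle library. None of these passed 2-fold. The log2 ratios of Fuca1, an α-fucosidase (55.7 CPM in the brequinar library and 60.1 CPM in the vehicle library), and Gusb, the β-glucuronidase (377 CPM in the brequinar library and 389.9 CPM in the vehicle library), were -0.11 and -0.05. Man2b1, the lysosomal α-mannosidase, was the exception with a log2 ratio above 0 (0.11). It had the highest CPM of this role, 931 CPM in the brequinar library and 861 CPM in the vehicle library.

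Genes for the breakdown of lipids, with those of the neuronal ceroid lipofuscinoses, all lay within 2-fold. All 8 entered, 5 had a log2 ratio below 0 and the median was -0.17. Gm2a encodes the activator that presents ganglioside GM2 to the product of Hexa. It stood at 164 CPM in the brequinar library and 302 CPM in the vehicle library, 1.84-fold lower (interval 1.79 to 1.897), the lowest ratio of this role. Psap, the precursor of the saposins that activate other sphingolipid hydrolases, stood at 446 CPM in the brequinar library and 511 CPM in the vehicle library, Asah1, the acid ceramidase, at 174 CPM in the brequinar library and 194 CPM in the vehicle library, and Smpd1, the acid sphingomyelinase, at 28.3 CPM in the brequinar library and 31.9 CPM in the vehicle library. These 3 sphingolipid genes had log2 ratios between -0.19 and -0.16. Tpp1, a tripeptidyl peptidase, stood at 116 CPM in the brequinar library and 144 CPM in the vehicle library, and Ppt1, a palmitoyl-protein thioesterase, at 97.9 CPM in the brequinar library and 95.9 CPM in the vehicle library. Grn, the precursor of the granulins, stood at 308 CPM in the brequinar library and 300.4 CPM in the vehicle library. Lipa, the acid lipase that frees cholesterol from its esters, had the highest ratio of this role, 1.29 (interval 1.23 to 1.34), at 108 CPM in the brequinar library and 83.8 CPM in the vehicle library.

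All 6 genes of lysosomal membrane proteins lay within 2-fold. Their median log2 ratio was 0.05, whose sign turned with scaling by total counts (-0.05). Lamp1 stood at 803 CPM in the brequinar library and 899.9 CPM in the vehicle library and Lamp2, which is also needed for the fusion of autophagosomes with lysosomes, at 551 CPM in the brequinar library and 400.1 CPM in the vehicle library. The ratio of Lamp1 was 0.892 (interval 0.8796 to 0.904) and that of Lamp2 was 1.38 (interval 1.35 to 1.403), so the intervals of these related genes lie on either side of 1. Scarb2, the receptor that carries β-glucocerebrosidase to the lysosome, had the largest ratio of this role, 1.498 (interval 1.398 to 1.61), at 41.9 CPM in the brequinar library and 27.99 CPM in the vehicle library. The tetraspanin gene Cd63 stood at 518 CPM in the brequinar library and 496 CPM in the vehicle library, and Mcoln1, a calcium channel of the lysosome, at 15.97 CPM in the brequinar library and 15.7 CPM in the vehicle library. Gpnmb, a glycoprotein of lipid-laden macrophages and osteoclasts, was low in both libraries, at 2.605 CPM in the brequinar library and 2.77 CPM in the vehicle library (121 counts in the brequinar library and 137 in the vehicle library), with an interval of its ratio from 0.731 to 1.21.

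The subunits of the proton pump that entered all stood slightly above 1. The 4 log2 ratios lay between 0.05 and 0.41 with a median of 0.18, and 3 of the 4 stayed above 0 with scaling by total counts, under which Atp6ap1 turned negative. Atp6v1a, the catalytic subunit that splits ATP, stood at 401 CPM in the brequinar library and 303 CPM in the vehicle library, a ratio of 1.33 (interval 1.297 to 1.35). Atp6v1h, a regulatory subunit of the cytosolic sector, stood at 111 CPM in the brequinar library and 94.1 CPM in the vehicle library, and Atp6v0d1, a subunit of the membrane sector, at 231 CPM in the brequinar library and 213 CPM in the vehicle library. Atp6ap1, an accessory protein of pump assembly, stood at 255 CPM in the brequinar library and 246 CPM in the vehicle library. Of 18 other genes of the pump 14 entered, 13 had a log2 ratio above 0, the median was 0.26, and none passed 2-fold. With scaling by total counts 11 of the 14 were above 0, with a median of 0.17. The largest were Atp6v1e1 and Atp6v1g1, subunits of the stalks that hold the sectors together, at 297 CPM in the brequinar library and 205 CPM in the vehicle library and at 71.6 CPM in the brequinar library and 49.8 CPM in the vehicle library. Atp6v1d, Atp6v1c1 and Atp6v0b followed with log2 ratios of 0.39, 0.36 and 0.35. Atp6v0a4, the subunit of the kidney pump, had 0 counts in the brequinar library and 22 in the vehicle library and did not enter.

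**Figure D2:**
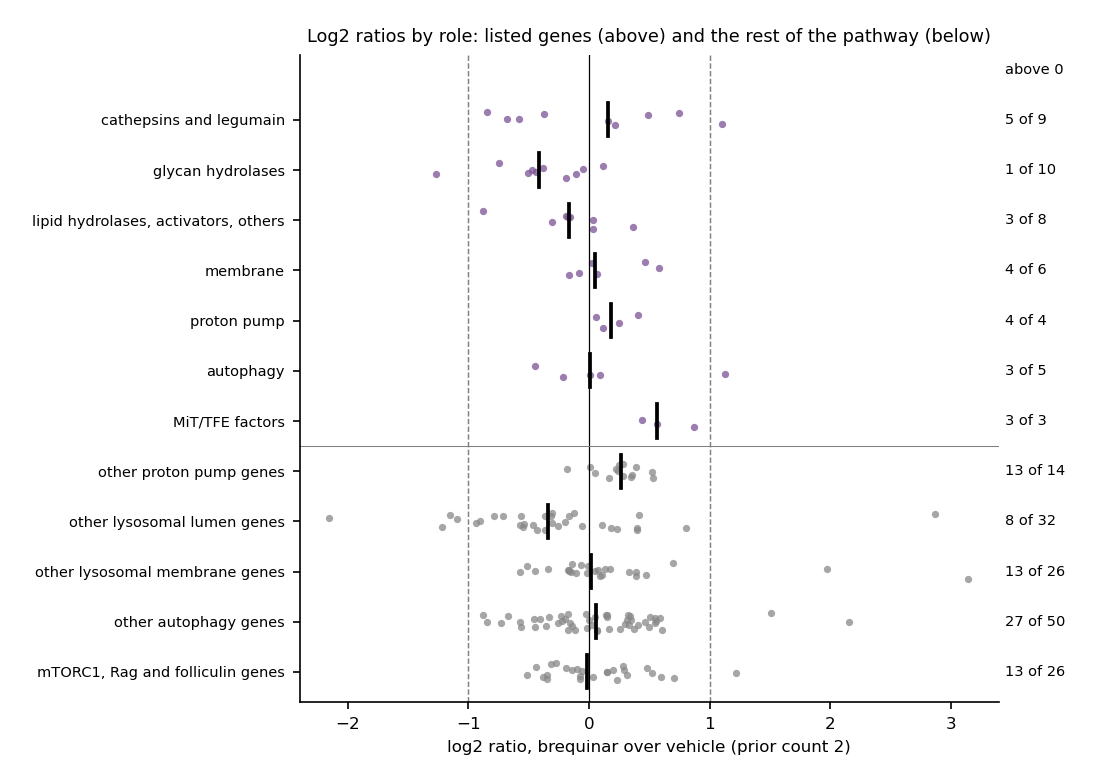
Log2 ratios, brequinar over vehicle, of the genes that entered, for the 7 roles of the 48 genes and for 5 lists of other genes of the pathway; each point is a gene, the bar is the list's median, dashed lines mark 2-fold, and the count at the right gives the genes above 0. Of 10 glycan hydrolases 1 lies above 0, of the 4 listed pump genes 4 do, and of 14 other pump genes 13 do.

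The autophagy genes held the largest ratio of the 48, closely followed by that of Lgmn. Wipi1 (ENSMUSG00000041895.12, chr11:109573331-109611967 on the minus strand) encodes a protein that binds phosphatidylinositol 3-phosphate on the forming autophagosome. It stood at 84.3 CPM in the brequinar library and 38.6 CPM in the vehicle library, 2.19-fold higher (interval 2.07 to 2.31), on 3915 counts in the brequinar library and 1908 in the vehicle library. Its whole interval lies beyond 2-fold. The other 4 did not pass 2-fold. Sqstm1, the cargo receptor p62, stood at 96.2 CPM in the brequinar library and 95.4 CPM in the vehicle library, and Map1lc3b, whose product LC3B coats autophagosomes, at 84.3 CPM in the brequinar library and 79.4 CPM in the vehicle library. Both intervals, 0.967 to 1.05 for Sqstm1 and 1.02 to 1.11 for Map1lc3b, exclude even a 1.5-fold difference by counting error alone. Ulk1, the kinase that starts autophagy, stood at 34.2 CPM in the brequinar library and 39.6 CPM in the vehicle library. Gabarapl1, a relative of LC3B, stood at 29.99 CPM in the brequinar library and 41.00 CPM in the vehicle library, 1.37-fold lower (interval 1.28 to 1.46). Of its exon bases 28.3% overlap a gene on the opposite strand that had 3 counts in the brequinar library and 5 in the vehicle library. The median of this role was 0.01 and turned to -0.08 with scaling by total counts and to -0.02 by the upper quartile.

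The 3 MiT/TFE transcription factors among the 48 genes all had log2 ratios above 0 under each of the 4 scalings, and none passed 2-fold. Tfe3 stood at 38.2 CPM in the brequinar library and 20.9 CPM in the vehicle library, a ratio of 1.83 (interval 1.69 to 1.97). Tfeb stood at 19.7 CPM in the brequinar library and 13.3 CPM in the vehicle library, a ratio of 1.48 (interval 1.34 to 1.64). Mitf, known for its role in melanocytes, mast cells and osteoclasts, stood at 5.92 CPM in the brequinar library and 4.37 CPM in the vehicle library, a ratio of 1.36 (interval 1.13 to 1.63). In all 3 the interval excludes 1. Tfec, another gene of this family, is not among the 48 and was read with the mTORC1 genes below. It had a higher CPM than the 3 and was not higher after brequinar. Tfec stood at 163 CPM in the brequinar library and 171 CPM in the vehicle library, a ratio of 0.951 (interval 0.921 to 0.981). RNA levels say nothing of where the proteins lay in the cell, which is the known point of their control.

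Set against each other per kilobase of transcript, the levels were led by Lamp1 in both libraries. Each CPM value was divided by the length in kb of the longest annotated transcript of the gene, which may not be the form these cells use. Lamp1 stood at 360.0 CPM per kb in the brequinar library and 404 in the vehicle library. The next in the brequinar library were Man2b1 (244, against 225 in the vehicle library), Ctsd (239, against 215 in the vehicle library) and Cd63 (179, against 171 in the vehicle library). Hexa stood at place 6 in the brequinar library (167 CPM per kb) and at place 2 in the vehicle library (227). Ctsb took place 7 in the brequinar library (153 CPM per kb) and place 13 in the vehicle library (109.6). Wipi1 took place 24 in the brequinar library (25.2 CPM per kb) and place 35 in the vehicle library (11.6). Neighbours in this order often differed by little, as Psap (168 CPM per kb) and Hexa (167) did in the brequinar library. The autophagy genes and transcription factors stood below the most abundant enzymes, with Sqstm1 the highest of them at 35.98 CPM per kb in the brequinar library and 35.7 in the vehicle library, and Tfeb at 8.43 in the brequinar library and 5.695 in the vehicle library. The lowest genes in both were Ctsk, Ctsf and Atp6v0d2, none above 0.6 CPM per kb.

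**Figure D3:**
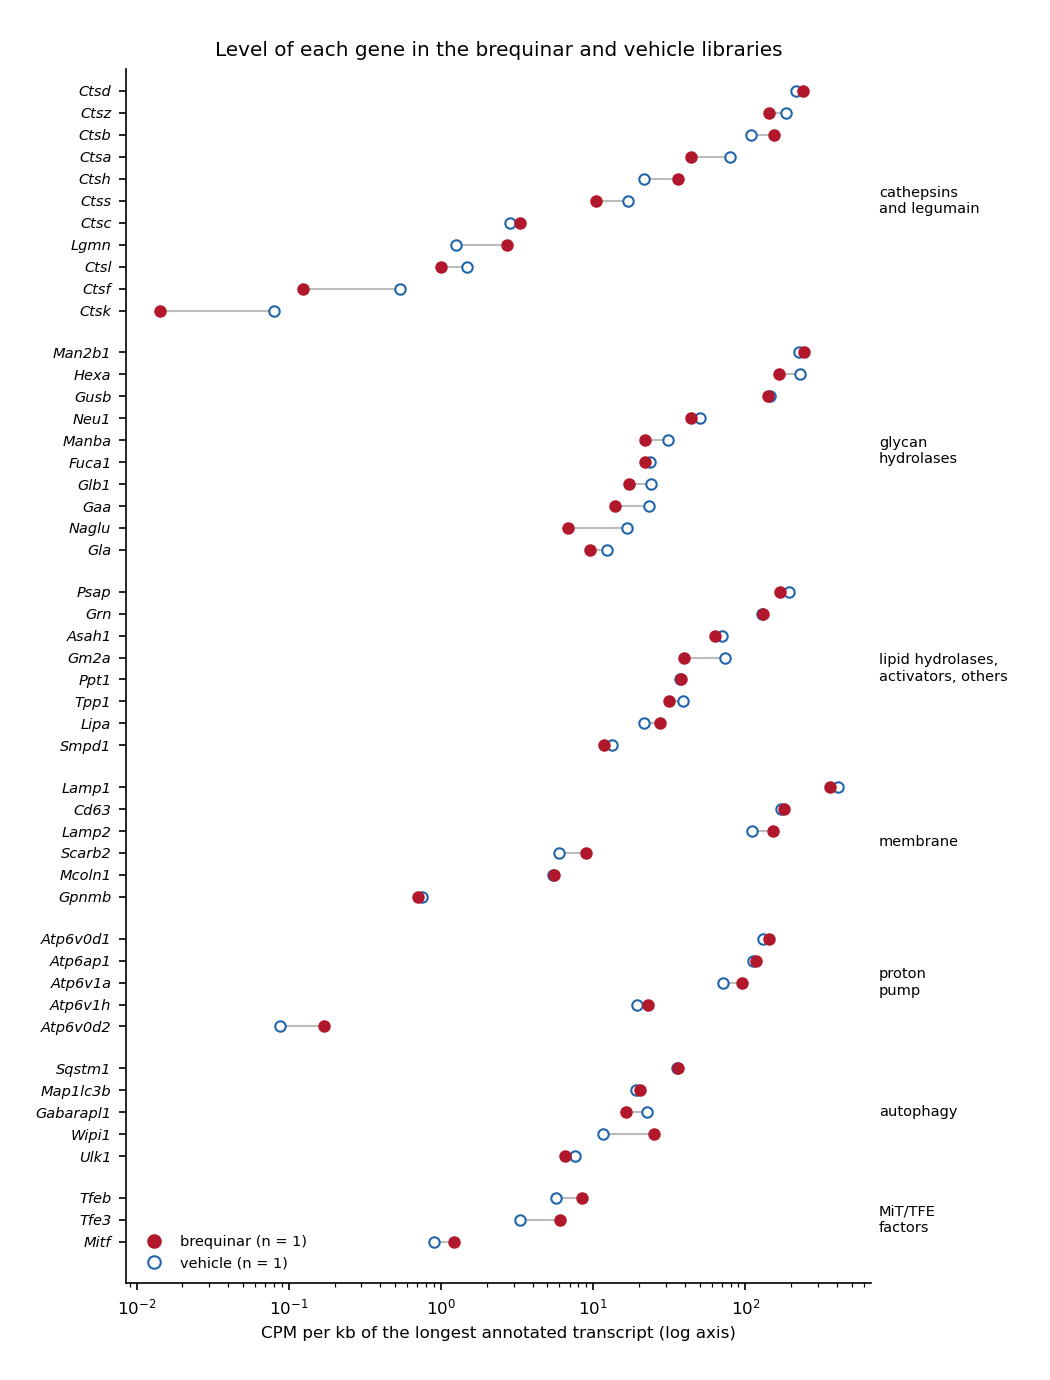
Level of each of the 48 genes as CPM per kb of its longest annotated transcript on a log axis, in the brequinar library (filled) and the vehicle library (open), 1 library each, ordered by level within each role. Lamp1 is highest, at 360.0 in the brequinar library and 404 in the vehicle library, and the gaps past 2-fold are those of Wipi1, Lgmn, Naglu and the low genes Ctsf and Ctsk.

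The promoters of these genes were then searched for the element that the MiT/TFE factors are known to bind. The window was 250 bases before to 50 bases after each start in RefSeq (GRCm38.p6), with 51 windows for 43 of the 48 genes. The element was taken as TCACGTGA, which reads the same on both strands and holds the shorter E-box CACGTG, also the same on both strands. Windows of 6 genes held TCACGTGA (Ctsa, Ctsd, Gla, Mcoln1, Atp6v0d1 and Atp6v1a), or 11.8% of the 51 windows, where 0.974% of all 32851 windows of the table held it. CACGTG was found in windows of 13 genes, or 25.5% of windows, against 7.15% of all. The element is already known from lysosomal genes, so its larger share among the genes listed here is not an independent result. The stretches that hold the element in these 6 genes, and those with CACGTG alone in Lamp1, which has 4 copies, and in the called genes Naglu and Lgmn, are printed 5′ to 3′ on the strand of the gene with the element in capitals. They lie at chr2:164833749-164833778 (plus strand), chr7:142387908-142387937 (minus), chrX:134601191-134601236 (minus), chr8:3500462-3500491 (plus), chr8:105566050-105566079 (minus), chr16:44139373-44139402 (minus), chr8:13159096-13159155 (plus), chr11:101070009-101070038 (plus) and chr12:102439124-102439153 (minus).
Ctsa: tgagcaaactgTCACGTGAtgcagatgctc
Ctsd: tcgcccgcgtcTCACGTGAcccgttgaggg
Gla: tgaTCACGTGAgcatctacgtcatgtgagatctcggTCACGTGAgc
Mcoln1: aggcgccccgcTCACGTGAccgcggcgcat
Atp6v0d1: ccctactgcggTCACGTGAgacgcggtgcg
Atp6v1a: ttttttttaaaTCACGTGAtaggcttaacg
Lamp1: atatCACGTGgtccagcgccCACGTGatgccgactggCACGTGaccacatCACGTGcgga
Naglu: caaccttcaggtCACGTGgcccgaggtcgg
Lgmn: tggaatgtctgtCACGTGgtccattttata

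Genes with the element did not share a direction. Their log2 ratios were -0.85 for Ctsa, -0.38 for Gla, 0.03 for Mcoln1, 0.12 for Atp6v0d1, 0.16 for Ctsd and 0.41 for Atp6v1a, none past 2-fold. That of Mcoln1 turned to -0.06 with scaling by total counts. Ctsa and Gla each hold 2 copies and had the lowest ratios of the 6. Igf2r, a receptor that sorts enzymes to the lysosome, was listed with the other lumen genes described below. It also holds 2 copies, and its log2 ratio was 0.10. In Ctsa the second copy spans bases 5 to 12 counted from the start. The printed stretch ends at base 6, so it holds only the first bases of that copy, in lower case. Of the genes past 2-fold, Lgmn and Naglu, which lie on opposite sides, each hold CACGTG alone, and neither form was found in the window of Wipi1. Of the 3 listed transcription factors none held either form. The match is one of letters, and no binding was measured.

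**Figure D4:**
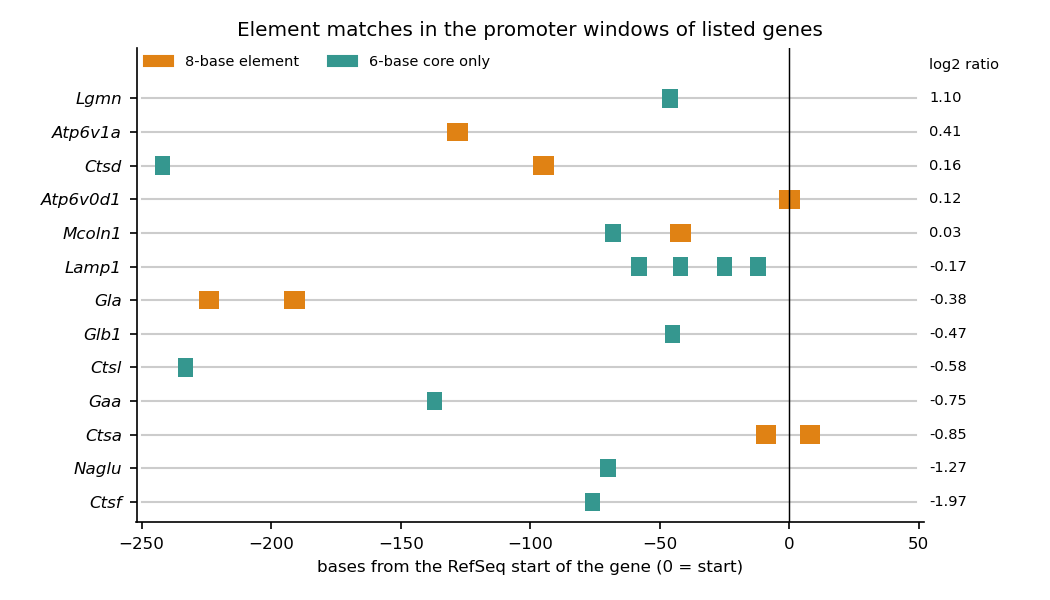
Places of the 8-base element and of its 6-base core outside it, in bases from the RefSeq start, in the windows of the 13 genes that hold either, ordered by log2 ratio of brequinar over vehicle (right). Genes with the 8-base element are found from 0.41 (Atp6v1a) to -0.85 (Ctsa), and the copies lie at no common distance.

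Other genes of the pathway were read from lists of the same kind. Their shares stand beside those of all genes that entered, 6.45% at least 2-fold higher, 4.40% at least 2-fold lower and 50.1% above 0. Of 33 other genes of the lysosomal lumen 32 entered, 1 was at least 2-fold higher and 4 were lower, and 24 had a log2 ratio below 0, with a median of -0.34 (-0.43 with scaling by total counts). The genes lower by 2-fold were Scpep1, a serine carboxypeptidase (7.19 CPM in the brequinar library and 32.1 CPM in the vehicle library), Acp5, the tartrate-resistant acid phosphatase (6.695 CPM in the brequinar library and 15.6 CPM in the vehicle library), Dpp7, a dipeptidyl peptidase (10.7 CPM in the brequinar library and 23.9 CPM in the vehicle library), and Dnase2a, the acid DNase (54.4 CPM in the brequinar library and 116 CPM in the vehicle library). Plbd1, a phospholipase B-like protein of neutrophils, was higher (37.1 CPM in the brequinar library and 5.03 CPM in the vehicle library). Acp5 is a marker of osteoclasts as well.

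Among 26 other genes of the lysosomal membrane 2 (7.69%) were at least 2-fold higher, near the 6.45% of all genes, and none was lower. Their median was 0.02, whose sign turned with scaling by total counts (-0.07) and by the upper quartile (-0.02). Slc11a1, the metal transporter NRAMP1 of phagocytes, stood at 12.1 CPM in the brequinar library and 1.33 CPM in the vehicle library, and Slc15a3, a peptide and histidine transporter of immune cells, at 5.66 CPM in the brequinar library and 1.41 CPM in the vehicle library. Tpcn2, Tmem192 and Slc17a5 came next with log2 ratios of 0.70, -0.57 and -0.52. The macrophage and neutrophil markers given above were higher in the same library as Plbd1, Slc11a1 and Slc15a3, and their part in these values was not tested.

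Of 50 other autophagy genes 2 were at least 2-fold higher and none was lower, with a median of 0.06 (-0.03 with scaling by total counts). They were Trp53inp1, a p53-induced protein that binds LC3 (53.9 CPM in the brequinar library and 12.04 CPM in the vehicle library), and its relative Trp53inp2 (19.9 CPM in the brequinar library and 6.97 CPM in the vehicle library). Bnip3, a receptor of mitophagy, Calcoco1 and Atg13, a partner of Ulk1, had log2 ratios of -0.88, -0.84 and -0.73. The other 48 genes of the list, among them these 3, lay within 2-fold. Among 28 genes listed with mTORC1, its Rag GTPases and folliculin, Tfec among them, 26 entered and 1 (3.85%) was higher. It was Sesn2, an inhibitor of mTORC1 that p53 and Atf4 induce (17.6 CPM in the brequinar library and 7.52 CPM in the vehicle library). None was lower, and the median was -0.01. Mlst8, a subunit of mTORC1, Rragd, a Rag GTPase whose gene is a known target of the MiT/TFE factors, and Fnip1, a folliculin partner, had log2 ratios of 0.70, 0.60 and 0.52, and Sesn1 had -0.52.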

How the data were processed

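The deposited values are whole-number read counts per Ensembl gene, not normalised, made by the authors from poly(A)-selected, strand-preserving libraries read as paired ends of 101 bases, per the labels' protocols. The submitters' processing notes name the build mm10, the aligner STAR 2.4.2a and the toolkit Picard in versions 1.99 and 2.2.4. No source used here gives the counting program, its strand setting or the annotation release. The 4 lines of reads that name no gene (20.2% of reads in the brequinar library, 21.6% in the vehicle library) were left out. Symbols, positions and transcript lengths came from GENCODE mouse release 21 (GRCm38, the assembly of mm10), which matched 44671 identifiers. TMM factors from edgeR 4.0.16 in R 4.3.3 were 0.969 for brequinar and 1.03 for vehicle, and log2 ratios used a prior count of 2. With 1 library a group no test between treatments was made; calls are 2-fold or more at a mean of at least 1 CPM. Intervals are Clopper-Pearson at 95%, given the summed count. Every member is accounted for, and up to 5 genes of each pathway list with the largest absolute ratios are named. Atp6v0a4, Igf2r and Tfec are named besides. Members and lists were chosen with earlier results of these data known. Ratio, call and interval were tested on simulated counts that held counting error only. Spread between animals or sorts was not part of that test. Alternatives were scaling by upper quartile, by total counts or by size factors of DESeq2 1.42.0, other filters, prior counts, thresholds and a lowess correction for length and GC content (span 0.3). Python 3.11.15 was used with scipy 1.17.1, pandas 2.3.3, matplotlib 3.10.9 and statsmodels 0.14.6.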

Additional observations from a re-analysis of the deposited data

How the results depend on the processing

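No paired analysis was possible because each group holds 1 library, and for the same reason no library could be left out. The counts of 2 members higher and 1 lower were the same under DESeq2 size factors, total counts, upper quartile scaling, prior counts of 0.5 and 5, the length and GC correction, and without members whose exons overlap another gene, which was added after seeing the data and left 31 members. Without a filter 2 of 48 members were higher and 3 lower (Ctsf and Ctsk entered), and over all genes 2470 were higher and 2074 lower. With a mean of at least 5 CPM 1 of 43 members was higher and 1 lower (Lgmn was left out), and over all genes 457 were higher and 230 lower. The number of all genes that entered under these other filters is not given, so members and all genes cannot be compared by share there. At 1.5-fold 4 of 45 members were higher and 5 lower (1456 higher and 1463 lower over all 11504 genes that entered). At 3-fold these were 0 and 0 (390 higher and 161 lower over all genes that entered). With the whole counting interval beyond 2-fold 1 member was higher and 1 lower (600 higher and 288 lower over all genes). The members' median was -0.080 with total counts, where that of all genes that entered was -0.091. Over the other settings the members' median ranged from -0.02 to 0.03. Windows of 13 members held CACGTG, against 6 with TCACGTGA. Of 358 member ratios under 8 other settings 299 stayed within the counting interval, 59 did not, and the largest shift was 0.14 (log2). Depth limits Ctsk, Ctsf, Atp6v0d2 and Gpnmb, the members with the fewest counts. Spread between animals or sorts is not measured here.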

Other observations

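Annotated exons of 14 of the 45 members that entered overlap those of another gene. Ppt1 shares 3.51% of its exon bases with Cap1 on the opposite strand, which had 43789 counts in the brequinar library and 23702 in the vehicle library, while Ppt1 had 4546 in the brequinar library and 4743 in the vehicle library. Glb1 shares 5.49% with Tmppe on the same strand, which had 1097 counts in the brequinar library and 1667 in the vehicle library, while Glb1 had 2242 in the brequinar library and 3316 in the vehicle library. Sqstm1 shares 17.3% with Mrnip, which had 283 counts in the brequinar library and 434 in the vehicle library. Hexa shares 12.8% with Tmem202, which had 23 counts in the brequinar library and 9 in the vehicle library. Of the 3 members past 2-fold, Wipi1, Lgmn and Naglu, none overlaps another gene. The shares of reads at these overlaps were not measured.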
